A study of Rattus norvegicus with 14 samples.

Results

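The genes G6pc1, Slc37a4, Fbp1 and Gpt encode a set of proteins that make and release glucose, and their RNA was followed over 13 arrays of rat small intestine, beside 1 array of primers. The members were chosen by symbol in the platform annotation, which gives each of the 4 a single probe, among 4156 genes with a symbol and 4682 features in all. Their Entrez identifiers are 25634 (G6pc1), 29573 (Slc37a4), 24362 (Fbp1) and 81670 (Gpt), and the RefSeq table of the GRCr8 assembly holds all 4 under the same symbols.

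Each array set the RNAs of its 2 channels against each other and gives a log ratio for every probe. Per the labels, small intestine was perfused with either HG or HF. Perfusion lasted 4 h for 6 arrays and 20 min for 4 arrays, and each of them paired an HG with an HF sample of equal number. The age is given as 20 days for the first 5 arrays and as 20 with no unit for the other tissue arrays, and the labels give no strain, sex or genotype. HG is read here as high glucose and HF as high fructose, which is background knowledge and not stated in the labels. On another 3 arrays, called self-self, a 4 h RNA (1HG, 3HG or 3HF) was hybridised against itself, and 1 more array held only labelling-kit primers. Array 6 is a second array of pair 2 at 4 h. Unperfused intestine was not analysed here, so that more RNA under HF and less under HG cannot be told apart. Nothing in the labels says that pairs came from separate animals, and p-values then measure only how much the arrays vary. In a whole tissue fewer cells of a type and less RNA per cell cannot be told apart, and a ratio holds no level, so the labelled tissue could not be checked against its markers.

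The sources used here do not give the scale and direction of the ratios. Base 2 is assumed, and a positive ratio is called the HF side, since it likely stands for higher RNA under HF. The basis is the title of array 6, which marks HG with a 5 and HF with a 3, read as Cy5 and Cy3, together with Slc2a5, the fructose transporter gene known to be induced by fructose, which had a mean of 1.65 on arrays 1 to 5 and a value of -1.66 on array 6. The direction at 20 min is assumed to be that at 4 h. At 20 min Slc2a5 lay between -0.44 and -0.01, with a mean of -0.32, so it gives no basis for the direction at that time. The comparison of 4 h with 20 min rests on this assumption.

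Glucose 6-phosphate is the common end point of gluconeogenesis and of glycogen breakdown. It is carried into the endoplasmic reticulum by the transporter that Slc37a4 encodes and is split there into glucose and phosphate by glucose-6-phosphatase, whose catalytic subunit is the product of G6pc1. Fructose bisphosphatase, the product of Fbp1, makes fructose 6-phosphate and is a controlled step of gluconeogenesis upstream. Alanine aminotransferase, the product of Gpt, turns alanine into pyruvate and so brings amino acid carbon into the pathway. Liver and kidney are the organs best known for glucose release, and the small intestine is known to express these enzymes, with fructose among the substrates it can turn into glucose.

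The promoters of the members are shown because the ratios of these genes lay on the same side at 4 h. RefSeq windows on GRCr8, from 250 bases before the start of the transcript to 50 after it, were found for 3 of the 4 members, and none is shown for Gpt. Of the 2 overlapping windows of Slc37a4 the first is printed. Capitals mark matches to the motifs searched, other than CAAAG, on either strand.
G6pc1, chr10:86807409-86807708, plus strand: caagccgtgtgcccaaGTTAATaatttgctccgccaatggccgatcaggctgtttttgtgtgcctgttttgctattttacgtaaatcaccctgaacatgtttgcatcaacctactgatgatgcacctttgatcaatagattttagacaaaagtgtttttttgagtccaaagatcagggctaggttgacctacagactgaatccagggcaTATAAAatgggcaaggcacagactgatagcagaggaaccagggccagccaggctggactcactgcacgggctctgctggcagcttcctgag
Slc37a4, chr8:53619775-53620074, plus strand: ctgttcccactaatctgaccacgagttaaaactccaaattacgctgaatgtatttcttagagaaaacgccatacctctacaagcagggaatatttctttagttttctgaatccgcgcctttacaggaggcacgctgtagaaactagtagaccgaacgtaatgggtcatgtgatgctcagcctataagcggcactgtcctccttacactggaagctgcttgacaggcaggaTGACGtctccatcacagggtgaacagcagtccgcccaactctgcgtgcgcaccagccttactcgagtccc
Fbp1, chr17:2213457-2213756, plus strand: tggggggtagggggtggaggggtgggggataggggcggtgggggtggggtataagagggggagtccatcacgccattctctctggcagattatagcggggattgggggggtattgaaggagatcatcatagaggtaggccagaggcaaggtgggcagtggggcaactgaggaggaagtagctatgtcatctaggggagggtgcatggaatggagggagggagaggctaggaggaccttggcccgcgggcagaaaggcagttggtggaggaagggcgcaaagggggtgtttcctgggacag

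The motifs searched on both strands were the cAMP response element TGACGTCA and its part TGACG, the FOXO or insulin response core as TGTTTAC and the longer TTGTTTAC that contains it, the HNF1 core GTTAAT, the HNF4 motif CAAAG, the E box CACGTG and the TATA box TATAAA. The G6pc1 window held GTTAAT from base -234 to -229, which 6.15% of the 3546 windows of genes on the array hold, and TATAAA from base -41 to -36, which 12% hold. It also held CAAAG on both strands, at -84 to -80 and at -125 to -121, and 47.5% of windows hold that motif. In Slc37a4 the printed window held TGACG from -20 to -16, and the second window held it at 2 places, while 26.9% of windows hold it. The Fbp1 window held CAAAG from base 27 to 31 and no other motif of the set. No motif of 6 or more letters was shared between the windows of these 3 genes. These are matches of letters and not sites of binding.

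After 4 h all 4 genes had mean ratios on the HF side, in the order G6pc1, Fbp1, Slc37a4 and Gpt. The ratio of G6pc1 was 2.50, 2.26, 1.98, 1.54 and 1.11 on arrays 1 to 5, a mean of 1.88 ± 0.56 (SD, n = 5), and -0.01, -0.07 and 0.24 on the self-self arrays. Every array at 4 h lay above every self-self array, and array 1 was the highest. The gene encodes the enzyme that frees glucose, and it stood 46th in signed difference from the self-self mean among all 4682 features. The difference was 1.83 (95% interval 0.76 to 2.89; 3.55-fold; limma p = 0.00288, adjusted p = 0.244), and the exact two-sided permutation test gave p = 0.0357, the smallest that 5 arrays against 3 allow.

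For Slc37a4, the transporter that feeds the phosphatase, the ratios at 4 h were 0.66, 0.77, 0.48, 0.39 and 0.67, with a mean of 0.60 ± 0.15 (SD, n = 5). On the self-self arrays it had 0.08, 0.09 and -0.04. The groups did not overlap. The difference of 0.55 (95% interval 0.31 to 0.80; 1.47-fold; limma p = 0.000347, adjusted p = 0.148; exact permutation p = 0.0357) had the smallest limma p of the 4 members. Although its ratio was smaller than that of G6pc1, its SD at 4 h was below the median SD of all features, 0.20, whereas the SD of G6pc1 was exceeded or equalled by only 2.37% of features.

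The ratios of Fbp1, the fructose bisphosphatase gene, were 0.58, 1.22, 1.71, 1.12 and 0.90 at 4 h, a mean of 1.10 ± 0.42 (SD, n = 5), and -0.02, -0.11 and -0.00 on the self-self arrays. Here too the groups did not overlap. The difference was 1.15 (95% interval 0.62 to 1.68; 2.22-fold; limma p = 0.000491, adjusted p = 0.164; exact permutation p = 0.0357). Array 1, which had the highest G6pc1 ratio, had the lowest Fbp1 ratio, so the difference between these genes ran from 0.21 on array 5 to 1.92 on array 1. G6pc1 was the highest of the 4 members on each of arrays 1 to 5.

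Gpt, the aminotransferase gene, had ratios of 0.48, 0.37, -0.05, 0.49 and 0.48 at 4 h and of 0.02, -0.01 and -0.03 on the self-self arrays. Array 3 lay below the self-self arrays and the other 4 lay above them. The mean at 4 h was 0.35 ± 0.23 (SD, n = 5), and the difference was 0.36 (95% interval 0.07 to 0.65; 1.28-fold; limma p = 0.0197, adjusted p = 0.409; exact permutation p = 0.143). With the RNA number as a replicate block it was 0.21.

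**Figure D1:**
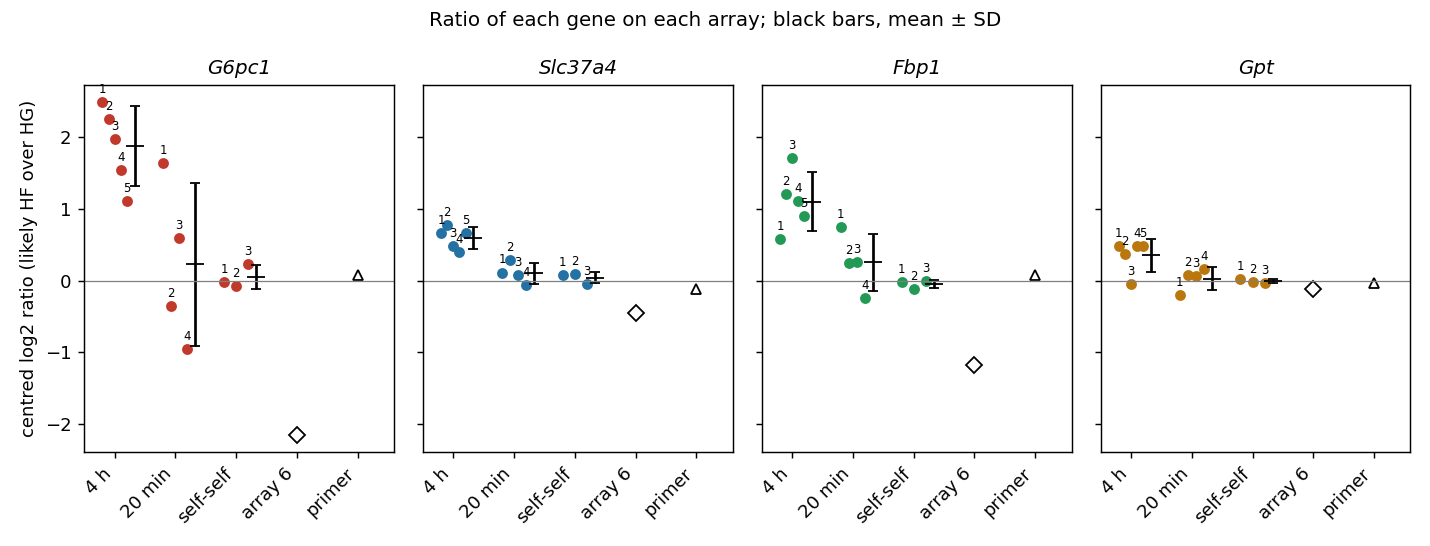
Centred log2 ratio (vertical axis) of each member on every array, by group (horizontal axis); numbers are the replicates of each group, black bars are means ± SD, the diamond is array 6 and the triangle is the primer array. G6pc1 lies between 1.11 and 2.50 at 4 h and between -0.96 and 1.64 at 20 min, and all 4 members lie below 0 on array 6.

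None of the 4 members passed an adjusted p of 0.05 at 4 h, which 0.0641% of all features did in limma. The 4 h arrays lay wholly above the self-self arrays in 3 of the 4 members, against 3.31% of all features, and 6.71% did not overlap in either direction. All 4 had a positive difference with an unadjusted p below 0.05, against 4.76% of features, or 9.97% in either direction. These shares describe the members and are no evidence about them, since the genes were chosen with their ratios at 4 h known. When arrays 1 to 5 were tested against a ratio of 0, with no self-self array subtracted, all 4 passed (limma adjusted p = 0.00119 for G6pc1, 0.000157 for Slc37a4, 0.000382 for Fbp1 and 0.0115 for Gpt). That test called 16.3% of all features (8.42% of all features above 0), and no dye effect is subtracted in it. The same test at 20 min called 0 of the 4 members, against 8.2% of features. Of the self-self values of the members the one farthest from 0 was 0.24, for G6pc1 on the array 3HF.

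Array 6 gave the same pair of RNAs as array 2 a second time, and every member had the opposite sign on it. G6pc1 was 2.26 on array 2 and -2.16 on array 6. Fbp1 was 1.22 and -1.18, Slc37a4 was 0.77 and -0.45, and Gpt was 0.37 and -0.12. Over all features 42.7% had opposite signs on these arrays, and among the 120 features beyond 1 on array 2 only 17.5% did. If the dyes were swapped, as the title of array 6 is read here, the mean of array 2 and of array 6 with its sign turned is the ratio of HF to HG in pair 2, at 2.21 for G6pc1, 1.2 for Fbp1, 0.61 for Slc37a4 and 0.25 for Gpt. The mean of both arrays as deposited is then the part that follows the dye, at 0.05 for G6pc1, 0.02 for Fbp1, 0.16 for Slc37a4 and 0.13 for Gpt. This rests on 2 arrays of 1 pair, with no replicate and no test, and the SD of all features was 0.82 on array 6 against 0.38 on array 2.

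**Figure D2:**
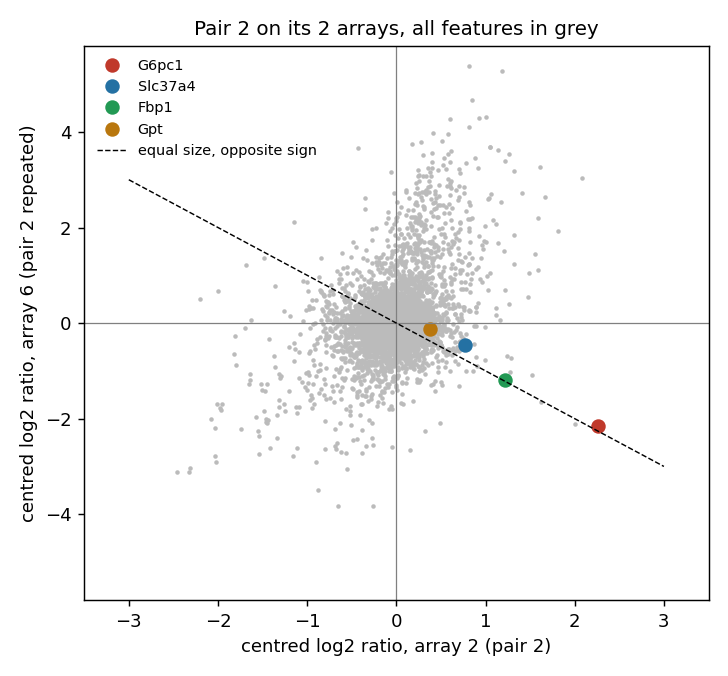
Centred log2 ratio of all 4682 features (grey) and the 4 members (colours) on array 2 (horizontal axis) and array 6 (vertical axis), with a dashed line where values have equal size and opposite sign. G6pc1, at 2.26 and -2.16, and Fbp1, at 1.22 and -1.18, lie by that line, while the grey points lean the other way.

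After 20 min no member passed the test against the self-self arrays, and the interval of each included 0. The ratio of G6pc1 was 1.64, -0.36, 0.60 and -0.96 on the 4 arrays in order, a mean of 0.23 ± 1.14 (SD, n = 4). A pair of arrays lay above the self-self range and a pair below it. The difference from the self-self mean was 0.18, with a 95% interval from -0.93 to 1.30 that spans a change of either sign (limma adjusted p = 0.992; exact permutation p = 0.8). Without 20 min array 1 it was -0.29. Fbp1 had 0.74, 0.25, 0.27 and -0.24, a mean of 0.26 ± 0.40 (SD, n = 4) with 3 of 4 arrays above the self-self range, and a difference of 0.30 (95% interval -0.25 to 0.85; adjusted p = 0.915; exact permutation p = 0.229). That difference was 0.14 without 20 min array 1 and 0.47 without 20 min array 4. From high to low the arrays ran 1, 3, 2 and 4 for both of these genes.

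For Slc37a4 and Gpt the ratios at 20 min lay between -0.20 and 0.29. The ratios of Slc37a4 were 0.11, 0.29, 0.08 and -0.06, and the difference from the self-self mean was 0.06 (95% interval -0.19 to 0.32; limma adjusted p = 0.974; exact permutation p = 0.514). With 1 array left out it ranged from 0.0020, without 20 min array 2, to 0.12, without 20 min array 4. For Gpt the values were -0.20, 0.07, 0.07 and 0.17, with a difference of 0.04 (95% interval -0.27 to 0.34; adjusted p = 0.992; exact permutation p = 0.743). The first array of this time, where G6pc1 and Fbp1 were highest, was the lowest for Gpt. In this comparison 4 arrays against 3 cannot give an exact p below 0.0571. None of the 4 members passed the adjusted p, which 0.0427% of features did, 0 had an unadjusted p below 0.05, against 5.21%, and in 0 of the 4 did the groups not overlap, against 7.01%.

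The spread of G6pc1 at 20 min was one of the widest on the arrays. Its SD of 1.14 was the 12th highest of 4682 features, where the median SD was 0.17, and 0.256% of features had an SD as high. Fbp1, with an SD of 0.40, was 208th, and Slc37a4 and Gpt, with SDs of 0.14 and 0.16, lay below the median. On the self-self arrays the SD of G6pc1 was 0.17, close to the median there of 0.15. The 95% interval of its difference at 20 min was wider than that of any other member.

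**Figure D3:**
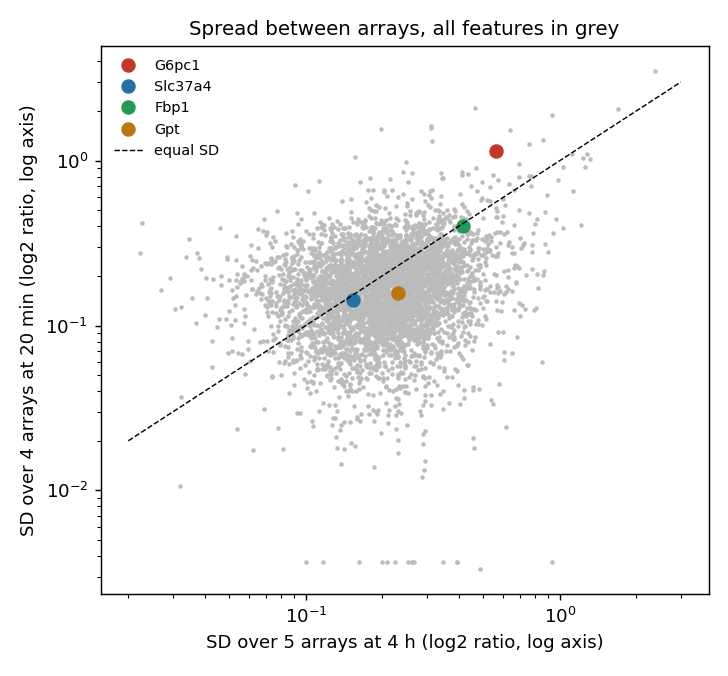
SD of the log2 ratio over the 5 arrays at 4 h (horizontal log axis) and over the 4 arrays at 20 min (vertical log axis), for all features in grey and the members in colours, with a dashed line of equal SD. G6pc1 has 0.56 and 1.14 and lies near the upper edge, and Slc37a4 (0.15 and 0.14) lies inside the cloud.

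The comparison of 4 h with 20 min asks whether the ratio of HF to HG depends on the length of perfusion, and any dye effect that the arrays of both times share drops out of it. By the labels the 4 h pairs are arrays 1 to 6 and the 20 min pairs arrays 7 to 10. The length of perfusion and the set of arrays and RNAs thus cannot be told apart. The ratio was higher at 4 h for each member, by 1.65 for G6pc1 (95% interval 0.67 to 2.63), 0.85 for Fbp1 (0.36 to 1.33), 0.49 for Slc37a4 (0.27 to 0.72) and 0.33 for Gpt (0.06 to 0.60). Adjusted over all features in limma, p was 0.131, 0.13, 0.0635 and 0.268 in that order, so that none passed, against 0.598% of features (0.278% upwards). All 4 had an unadjusted p below 0.05 and shifted up, against 6.3% of features, or 13.5% in either direction. G6pc1 had the 4th highest signed difference of all 4682 features, Fbp1 the 16th, Slc37a4 the 70th and Gpt the 253rd. Every 4 h array lay above every 20 min array for Slc37a4 alone of the 4 members, against 3.42% of features, and 6.54% did not overlap in either direction. Here too the shares and ranks describe the members and are no evidence about them, since their ratios at 4 h were known when they were chosen. For G6pc1 the ratio of 1.64 on 20 min array 1 exceeded those of arrays 4 and 5 at 4 h, and for Fbp1 the 0.74 on that array exceeded the 0.58 of array 1 at 4 h.

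The exact permutation test gave p = 0.0159 for Slc37a4, the smallest possible with 5 arrays against 4, and p = 0.0317 for Fbp1, 0.0476 for G6pc1 and 0.0635 for Gpt. Over the 12 exact tests of the members, the lowest Benjamini-Hochberg adjusted value was 0.0857. That adjustment does not cover the choice of the members, which was made with their ratios at 4 h known. Without 20 min array 1 the difference of G6pc1 was 2.12 and passed in limma (adjusted p = 0.0484), and without array 4 at 4 h that of Slc37a4 was 0.54 and passed (adjusted p = 0.0473). No other array left out brought a member past the threshold in any of the 3 comparisons.

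**Figure D4:**
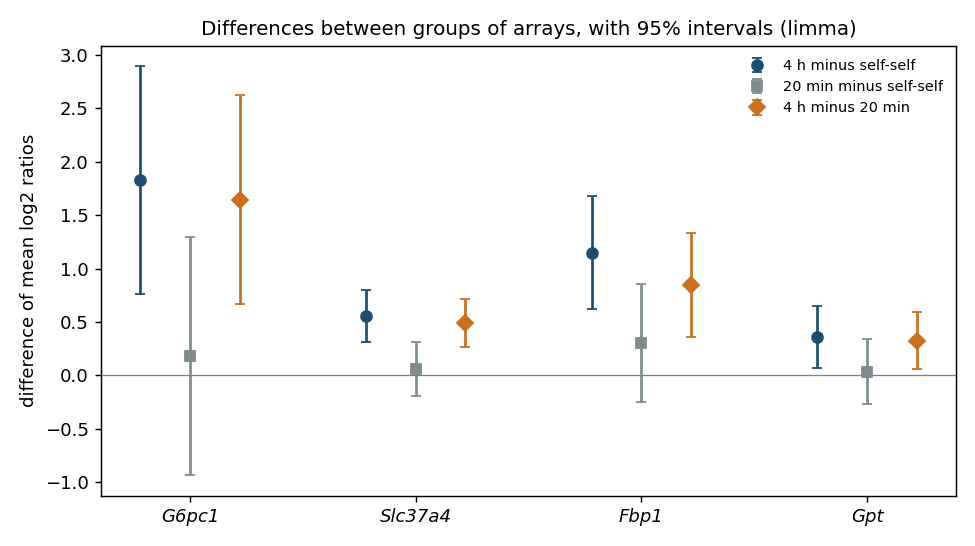
Difference of mean log2 ratios (vertical axis) for the 4 members in the 3 comparisons, with 95% intervals from limma. The intervals at 4 h against self-self and against 20 min lie above 0, from 0.76 to 2.89 and from 0.67 to 2.63 for G6pc1, and those at 20 min against self-self include 0 for each member.

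The probes of Fbp1 and Slc37a4 have consecutive numbers, 3716 and 3717, and the sources used here do not say whether that makes them neighbours on the slide. The 9 other probes with numbers within 5 of Fbp1 had means at 4 h between -0.07 and 0.35, below both genes. For G6pc1 the 10 nearest probe numbers lay between -0.16 and 0.66 at 4 h. Of 274 values that are exactly 0 in the deposited table, 0 belong to the members.

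The other genes of glucose handling came from 4 lists, with 83 measured genes besides the members. None passed at 4 h against self-self, and Gpd1 and Pfkfb2 passed from 20 min to 4 h. Against the self-self arrays at 4 h, 50 of the 83 (60.2%) had a positive difference, against 48.5% of all features, and none passed the adjusted p in either direction. An unadjusted p below 0.05 was reached by 12 of 83 (14.5%), against 9.97% of all features, and 10 of them lay on the HF side, against 4.76% of all features. At 20 min 37 of 83 (44.6%) were positive, against 50.6% of all features, and 0 had an unadjusted p below 0.05, against 5.21%. From 20 min to 4 h 50 of 83 shifted up, against 48.0% of all features, and 2 passed, both upwards, against 0.278% of all features. An unadjusted p below 0.05 was reached there by 16 of 83 (19.3%), against 13.5% of all features, and 13 of them shifted up, against 6.3%. The median of the 83 was 0.05 in that comparison, against -0.01 over all features. These shares, and the counts for each list below, describe the listed genes and are no evidence about them. The lists, like the members, were chosen with earlier results of these data known.

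Among 13 other genes of the steps from pyruvate to glucose, most of them shared with glycolysis, 8 were positive at 4 h with a median of 0.04. With the self-self arrays as control Eno1, an enolase, had 0.40 ± 0.16 (SE), Aldoc, an aldolase, 0.39 ± 0.15, and Mdh1, the cytosolic malate dehydrogenase, 0.27 ± 0.13. Tpi1, triose phosphate isomerase, and Pgam2, a phosphoglycerate mutase of muscle, had -0.32 ± 0.14 and -0.27 ± 0.14. These values were -0.15 for Tpi1 without the self-self array 3HF and -0.14 for Pgam2 without 3HG. The adjusted p in limma lay at 0.438 for Eno1 and above that for the other 4. Aldoc had a mean of -0.23 at 4 h and of -0.62 on the self-self arrays, so that its own ratio at 4 h was negative. From 20 min to 4 h Eno1 shifted by 0.44, Pgam1 by 0.39, Eno2 by 0.34, Mdh1 by 0.31 and Pgk1 by -0.29, and none passed.

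Genes by which amino acids, lactate and glycerol enter the pathway numbered 19 besides Gpt, and 11 were positive at 4 h. Gpd1, the cytosolic glycerol 3-phosphate dehydrogenase, had ratios of 0.51, 0.58, 0.75, 0.32 and 0.47 at 4 h and of 0.07, -0.11, -0.31 and -0.09 at 20 min. The groups did not overlap, and its shift of 0.64 ± 0.11 (SE; limma adjusted p = 0.0297) was the single one of the 19 to pass. It passed in 15 of 24 alternatives, and those that ended the call included array 6 averaged in as deposited and the fits without any 1 of arrays 1 to 3 at 4 h, 2 to 4 at 20 min or the self-self array 3HF. Ldhb, a lactate dehydrogenase, differed from self-self by 0.64 ± 0.12 at 4 h (adjusted p = 0.128) and from 20 min by 0.38 ± 0.11 (adjusted p = 0.163). Got1, the cytosolic aspartate aminotransferase, had 0.41 ± 0.15 and 0.35 ± 0.14 (adjusted p = 0.409 and 0.289). Slc25a11, a mitochondrial carrier, shifted by 0.33 from 20 min to 4 h and Got2, the mitochondrial aminotransferase, by -0.35, with adjusted p of 0.335 and 0.493. Without 4 h array 3 the shift of Slc25a11 was 0.22, and without 20 min array 1 that of Got2 was -0.21.

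Of 9 other genes that use or make glucose 6-phosphate none passed, and 6 shifted up from 20 min to 4 h. Ppp1r3b, which targets a phosphatase to glycogen, shifted by 0.41, Pygm and Pygb, glycogen phosphorylases, by 0.33 and 0.32, and Gckr, the regulator of glucokinase, by 0.30, with limma adjusted p between 0.297 and 0.463. Hk2, a hexokinase, shifted by 0.13, with a range of 0.021 to 0.26 when 1 array was left out, and Pygm shifted by 0.22 without 4 h array 1. Against self-self at 4 h Gys2, the glycogen synthase of liver, had the smallest p of the 9, with -0.81 ± 0.56 (SE; limma adjusted p = 0.595), and 0.24 without the self-self array 1HG. Gckr had 0.20, and 0.099 without 4 h array 2, and Pygm had 0.20, and 0.085 without 4 h array 1.

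The 42 regulators measured included 25 that shifted up from 20 min to 4 h, with a median of 0.04. Pfkfb2, a bifunctional enzyme that sets the level of fructose 2,6-bisphosphate, which inhibits fructose bisphosphatase, was the single one called, with a shift of 0.74 ± 0.13 (SE; limma adjusted p = 0.0359). It had ratios between 0.10 and 0.71 at 4 h and between -0.40 and -0.12 at 20 min, and it passed in 9 of 24 alternatives, failing without any 1 of arrays 1, 2, 3 and 5 at 4 h, the 4 arrays at 20 min and the self-self arrays 3HG and 3HF. Trib3, a pseudokinase that binds the kinase Akt, shifted by 0.65 ± 0.13 (adjusted p = 0.0542), Nr1h3, an oxysterol receptor, by -0.59 ± 0.17 (adjusted p = 0.148), Klf15 by -0.47 and Cebpa by 0.31, both transcription factors. Against self-self at 4 h Pfkfb2 had 0.59, Trib3 0.55, Pfkfb4 0.42, Cebpa 0.29 and Prkaca, a catalytic subunit of protein kinase A, -0.67, which was -0.16 without the self-self array 1HG. That array had the widest spread of all and is in neither group compared from 20 min to 4 h. Leaving it out keeps those differences and changes only the estimate of their spread. Then 5 of the 83 genes passed from 20 min to 4 h, against 43 of all 4682 features. These were Gpd1, Pfkfb2, Trib3 (0.65; adjusted p = 0.0352), Atf4 (0.77; adjusted p = 0.0117), a factor of the amino acid and stress response, and Pdk2 (0.62; adjusted p = 0.0273), a kinase that inhibits pyruvate dehydrogenase. In the main fit the limma adjusted p was 0.29 for Atf4 and 0.523 for Pdk2. Atf4 was named here after its value had been seen, although the rule for named genes also picks it at 20 min against self-self.

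**Figure D5:**
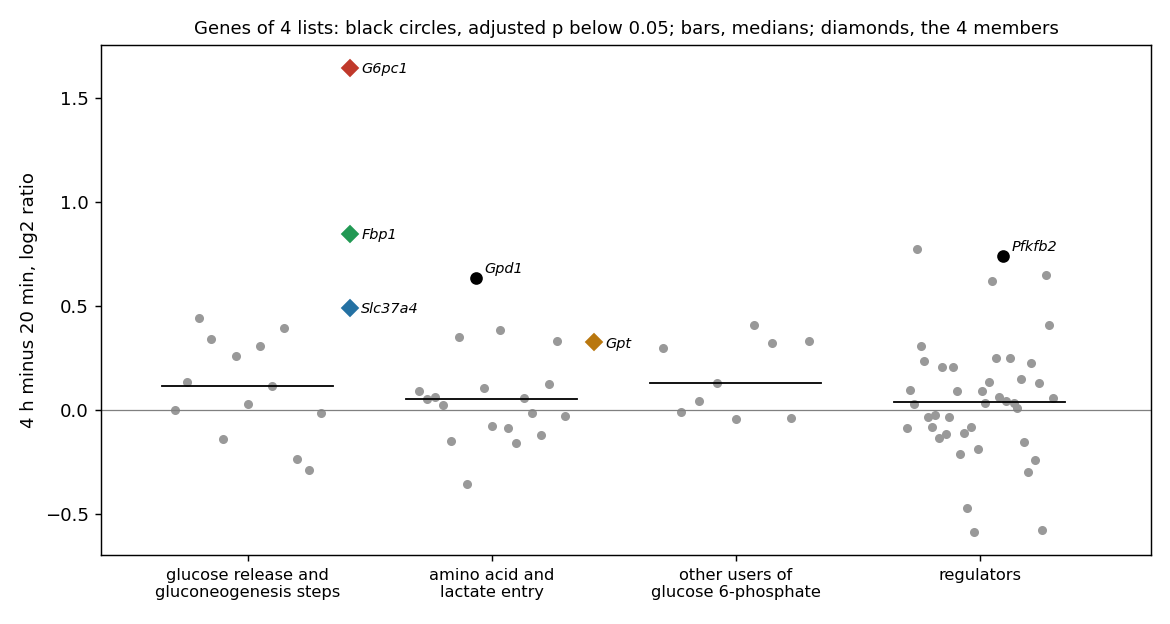
Shift of the log2 ratio from 20 min to 4 h (vertical axis) for the 83 other genes of the 4 lists (circles), with list medians as bars, the genes that passed in black and the 4 members as diamonds beside their list. G6pc1, at 1.65, and Fbp1, at 0.85, lie above every circle, and Gpd1 (0.64) and Pfkfb2 (0.74) are the genes that passed.

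Genes with the most similar ratios were sought by the root mean square difference over the 9 arrays at 4 h and 20 min, among 4156 genes. Nearest to G6pc1 were Cnga3, a cyclic nucleotide-gated channel subunit (0.84), Fbp1 (0.87) and Slc2a5 (0.88), against 1.60 for a gene at 0 on every array. Fbp1 was thus the second nearest to G6pc1, and Slc37a4 the 53rd. At 20 min Cnga3 lay between -0.20 and -0.07 and Slc2a5 between -0.44 and -0.01, where G6pc1 ran from -0.96 to 1.64. Counted from Fbp1, G6pc1 was the 1272nd nearest, and from Slc37a4 the 4081st. Nearest to Slc37a4 was Pdk2, at 0.12, whose ratio was 0.80, 0.78, 0.43, 0.40 and 0.76 at 4 h, followed by Nup88, a nuclear pore protein (0.17), and Ldhb (0.17), against 0.47 for a gene at 0. Nearest to Fbp1 were Casp1, the protease that matures interleukin 1 beta (0.33), Pfkl, a phosphofructokinase subunit (0.39), and Nat8f3 (0.41), against 0.92. Nearest to Gpt were Dnase1, a nuclease (0.13), Hibadh, an enzyme of valine breakdown (0.15), and Tubg1, a tubulin of the centrosome (0.16), against 0.32 for a gene at 0. The genes nearer to a member than a gene at 0 numbered 1868 for G6pc1, 1384 for Slc37a4, 1724 for Fbp1 and 856 for Gpt. On array 6 Cnga3 (-2.12) and Pdk2 (-0.99) had the opposite sign, as G6pc1 and Slc37a4 did, but Casp1 (1.70), Pfkl (0.43) and Nat8f3 (3.63) kept theirs, unlike Fbp1.

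Markers of 11 cell types or tissues were examined beside the members, since liver and kidney also express them, and none of their genes passed in limma in any comparison. The mean log ratio of 15 hepatocyte markers lay between -0.06 and 0.01 on the arrays at 4 h, between -0.09 and 0.20 at 20 min and between -0.04 and 0.00 on the self-self arrays. At 20 min against self-self 3 of them were higher and 0 lower at an unadjusted limma p below 0.05. Of all features 5.21% passed there in either direction. The highest difference of a hepatocyte marker was 0.90. Wholly above the self-self arrays lay 2 of the 15, against 7.01% of all features not overlapping in either direction. For 7 markers of the kidney proximal tubule the mean lay between -0.29 and -0.01 at 4 h and between -0.08 and -0.01 at 20 min. On the self-self arrays it lay between -0.19 and 0.02. At 20 min against self-self 1 of the 7 was higher and 0 lower at an unadjusted limma p below 0.05, with a difference up to 0.47. The 15 enterocyte markers had means between -0.38 and -0.15 at 4 h, -0.28 and -0.05 at 20 min and -0.26 and -0.04 on the self-self arrays, with 10 of 15 below 0 in the difference at 4 h. Of these 15, 4 were lower and 0 higher at an unadjusted p below 0.05 at 4 h against self-self. Of all features 9.97% passed there in either direction, and 4.76% passed upwards. Wholly below the self-self arrays lay 2 of the 15. Of all features 6.71% did not overlap in either direction, and 3.31% lay wholly above. From 20 min to 4 h 5 were lower and 0 higher, against 13.5% of all features in either direction and 6.3% upwards. At 4 h 3 of the 15 lay wholly below the 20 min arrays. Of all features 6.54% did not overlap in either direction, and 3.42% lay wholly above. The 12 markers of exocrine pancreas had means between -0.30 and -0.11 at 4 h, against -0.43 to 0.10 on the self-self arrays. Their differences at 4 h from self-self ran from -0.78 to 2.21 with a median of -0.28, and 3 of 12 were positive, against 48.5% of all features. At an unadjusted limma p below 0.05, 3 were lower and 0 higher, against 9.97% of all features in either direction. The part of enterocytes, pancreas or any other cell type or tissue in the ratios of the members was not tested.

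Few arrays and 1 probe per gene limit these values. The SD over all probes was 0.33 to 0.40 on the arrays in the 4 h and 20 min groups and 1.39 on the self-self array 1HG, on which the members nevertheless lay between -0.02 and 0.08.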

How the data were processed

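Per the labels, RNA of perfused rat small intestine was hybridised to 2-colour arrays. The log2 values used are those the authors deposited for 4952 probes on 14 arrays; base 2 is an assumption. For the scanner, background correction, normalization, base and direction, nothing is given in the sources used here. Raw intensities were not analysed here, and the number of arrays limits the precision. Each array was centred on its median and probes of 1 symbol were averaged, which left 4682 features. A single limma fit (version 3.58.1, R 4.3.3; lmFit and eBayes) held 12 arrays, with 5 of the 4 h group, 4 of the 20 min group and 3 self-self. It had 9 residual and 2.84 prior degrees of freedom. The fit assumes a common variance per feature across self-self and pair arrays, though each member varied least on the self-self arrays. For Fbp1 the SD was 0.06 there, 0.42 at 4 h and 0.40 at 20 min. With only the compared groups in the fit, adjusted p at 4 h against self-self was 0.333 for Slc37a4 and Fbp1. In the main fit it was 0.148 and 0.164. For Gpt adjusted p also rose, and for G6pc1 it fell. The smaller fit also had fewer residual degrees of freedom. Calls required an adjusted p (Benjamini-Hochberg, all features) under 0.05. Exact two-sided permutation tests of the difference of means used scipy 1.17.1.

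Array 6 and the primer array were left out of the fit. The members, the gene lists and the treatment of array 6 were chosen with earlier results of these data known. Named genes are the 4 members, up to 5 genes of each list with the smallest p in a comparison plus any called, and the 3 genes nearest to each member. List genes that this rule picks only at 20 min against self-self are not reported, apart from Atf4. Alternatives were centring, scaling, quantile normalization, 3 treatments of array 6, the arrays and features in the fit, robust moderation, array weights, a replicate block, a test against 0 and leaving out each array. The steps were tested on simulated data. The numbers 1 to 4 were not used in the main fit to pair the 4 h arrays with those at 20 min. Deviations from the group means correlated at -0.07, 0.16, -0.03 and -0.02 for arrays of equal number. For unequal numbers the correlations ran from -0.17 to 0.12. These values cannot tell whether arrays of equal number share a source, since what HG and HF RNAs share cancels in a ratio.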

Additional observations from a re-analysis of the deposited data

Results flagged for a closer look

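Outlying arrays were sought in 66 sets of values, for the members and for genes of the 4 lists, each at 4 h and at 20 min. The list genes were those named in a comparison of 4 h, against self-self or against 20 min. Of the 66 sets, 1 had an array far from the others, where chance gives about 1 in 20. It was Gpt, with -0.051 on array 3 at 4 h against 0.37 to 0.49 on the others. A difference between the perfusion times passed in limma for Gpd1 (0.64; adjusted p = 0.0297) and Pfkfb2 (0.74; adjusted p = 0.0359). For Prkaca every array at 4 h lay below 0 and every array at 20 min above it (difference -0.30, means -0.18 and 0.11), but the difference did not pass in limma (adjusted p = 0.687).

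Outside the arrays of the fit, array 6 gave values of the members beyond the range of their self-self arrays: -2.16 for G6pc1, -1.18 for Fbp1, -0.45 for Slc37a4 and -0.12 for Gpt. On the primer array Slc37a4 had -0.11, below its self-self values of -0.04 to 0.09. Fbp1 had 0.075 there, above its self-self values of -0.11 to -0.0015, though closer to 0 than the lowest of them.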

How the results depend on the processing

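The differences of the 4 members at 4 h, from self-self and from 20 min, kept their sign in every alternative run. The members passed the threshold there only in the test of arrays 1 to 5 against 0 (1.88 for G6pc1, 0.60 for Slc37a4, 1.10 for Fbp1 and 0.35 for Gpt), and with an array left out, G6pc1 without 20 min array 1 and Slc37a4 without 4 h array 4. With 1 array left out the 4 h minus 20 min difference ranged from 1.25 to 2.12 for G6pc1 and from 0.44 to 0.55 for Slc37a4. At 20 min against self-self, leaving out an array gave -0.29 to 0.58 for G6pc1, 0.14 to 0.47 for Fbp1, 0.0020 to 0.12 for Slc37a4 and -0.012 to 0.11 for Gpt, and the replicate block gave 0.64 for G6pc1, 0.45 for Fbp1 and -0.082 for Gpt. Quantile normalization raised the difference of G6pc1 at 4 h to 2.96. The replicate block used the RNA number. By the labels it ties the self-self arrays to 4 h arrays 1 and 3, which hold the same RNAs, while the 4 h and 20 min arrays share only a number. It left the members uncalled, moved Gpt at 4 h against self-self to 0.21 and gave 2, 0 and 12 called features in the 3 comparisons, in place of 3, 2 and 28. It ended the calls of Gpd1 and Pfkfb2. Array 6 averaged in as deposited gave 0 calls in each comparison, and in all comparisons the limma settings with 0 calls had 178 to 446 features with an unadjusted p below 0.05. For 4 h against self-self the test against 0 called 763, and leaving out an array gave 2 to 5, the most without 4 h array 2. For 20 min against self-self, 0 were called with scaled arrays, with array 6 turned or reflected and with only the compared groups in the fit, 384 against 0, and 0 to 4 with an array left out (4 without 3HF). For 4 h against 20 min, 16 were called with scaled arrays, 18 with array 6 turned, and 4 to 43 with an array left out, the fewest without 20 min array 2 and the most without the self-self array 1HG. The fall was by over 1.5 times without any 1 of 4 h arrays 1 to 3, the 20 min arrays, 3HG or 3HF. Some listed genes changed sign at 4 h: Aldoc (-0.23) and Gpd2 (0.029) against 0, and Hk1 with scaled arrays (-0.018) and with array 6 turned (-0.043). With an array left out Hk1 ranged from -0.010 to 0.21, Gpd2 from -0.61 to 0.088 and Gys2 from -1.48 to 0.24. The cause of these changes was not tested. Signal over background, slide and scan were not analysed here.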
